A study of Mus musculus with 12 samples.

Results

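The BCL-2 family genes followed here were 10 of the 32867 genes in the gene table, found by their gene names: the effectors Bax and Bak1, the guardians Bcl2, Bcl2l1 and Mcl1, and the BH3-only members Bcl2l11, Bbc3, Pmaip1, Bid and Bad. RNA was sequenced from the whole retina of 12 samples in 4 groups of 3: wild-type C3H, Pde6b rd1 (called rd1 here) taken on postnatal day 13, Pde6b rd10 (rd10) on day 23 and Prph rd2 (rd2) on day 29, days at which the labels place the height of photoreceptor death. The 3 C3H samples carried wild-type alleles of Pde6b and Prph2 and were labelled day 13, 23 and 29, so each day had 1 control. The methods place rd1 and rd2 on the C3H background of the controls and rd10 on C57Bl6/J, whereas the label of rd2 names C57BL6/J. No treatment was given to any group, and nothing in the labels says how many animals made up a sample, so p-values measure the spread between these samples only. The study asked which transcripts change in retinas that are losing photoreceptors for different genetic reasons.

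BCL-2 family proteins decide whether the outer membrane of the mitochondrion is opened during apoptosis. BAX and BAK form the pores through which cytochrome c leaves to start the caspase cascade, BCL-2, BCL-XL and MCL-1 hold them in check, and the BH3-only proteins sense particular stresses and tip the balance by binding guardians or effectors. Much of this control is exerted on the proteins, by phosphorylation, cleavage, turnover and movement to the mitochondrion, none of which RNA counts show.

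The labels were checked against genes that should follow them. The gene counts of a sample summed to 17049495 at the least and 24755890 at the most. Pde6b, the gene mutated in both Pde6b models, had 24335 to 29129 reads in C3H, 4937 to 6253 in rd1, 16340 to 21014 in rd10 and 24549 to 26164 in rd2. Prph2 had 52768 to 65756 reads in C3H and 30656 to 34634 in rd2, and it was as low in rd1, at 29041 to 35541, with 38587 to 51724 in rd10, so its level does not single out rd2. The 10 rod markers summed to 6108 to 6367 FPKM in C3H, 3398 to 3421 in rd1, 4974 to 5232 in rd10 and 4071 to 4392 in rd2. FPKM is a count scaled by the length of the gene and by the sample's total, and in whole tissue fewer cells of a type cannot be told apart from less RNA per cell. The 3 C3H samples, although labelled with different ages, were close to one another, for example at 770 to 793 FPKM for the sum of 5 Müller glia markers, against 389 to 398 in rd1 at the youngest age. Xist had 8 to 10 reads in C3H and 13428 to 83716 in the models. The Y-linked Ddx3y had 1481 to 2005 reads in C3H, 0 in rd1, 1056 to 1696 in rd10 and 757 to 907 in rd2. Every rd10 and rd2 sample thus held reads of both transcripts. Sex, as well as age, cannot be told apart from model. The same holds of strain for rd10, and for rd2 if its label is right. None of the 10 genes lies on a sex chromosome.

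The family spanned a wide range of transcript levels, from Mcl1 at the top to Pmaip1 at the bottom. Mcl1, which encodes a short-lived guardian protein, had the highest mean FPKM over the 12 samples, 32.2, above 94.3% of the 19616 genes that passed the count filter of the 12-sample fit. Bcl2l1, which encodes BCL-XL, followed at 15.4, and Bad, Bax and Bak1 lay at 7.20, 6.97 and 5.36. Bcl2l11, which encodes BIM, stood at 2.98 and Bbc3, which encodes PUMA, at 2.51. Bcl2 itself was low by FPKM, at 1.83, below Bad, Bax, Bak1 and both other guardians. That place rests on the gene length used, 9157 bases for Bcl2 against 2007 for Bad, 1576 for Bax, 2407 for Bak1 and 3418 for Mcl1. By reads, Bcl2 had 298, 411 and 293 in C3H and Bax 232, 267 and 222. Ratios of Mcl1 or Bax to Bcl2 depend on the same lengths. Bid was at 1.62 and Pmaip1, which encodes NOXA, was lowest at 0.688, above 20.1% of those genes. In C3H the mean Mcl1 level was 17.1 times that of Bcl2. All 10 genes passed the count filter in every comparison. All are protein-coding genes, placed here by the GENCODE annotation of GRCm38. On the minus strand lie Bax (ENSMUSG00000003873) at chr7:45461697-45466898, Bak1 (ENSMUSG00000057789) at chr17:27019810-27029009, Bcl2 (ENSMUSG00000057329) at chr1:106538178-106714274, Bcl2l1 (ENSMUSG00000007659) at chr2:152780668-152831728 and Bid (ENSMUSG00000004446) at chr6:120891930-120916853. On the plus strand lie Mcl1 (ENSMUSG00000038612) at chr3:95658788-95663176, Bcl2l11 (ENSMUSG00000027381) at chr2:128126038-128162547, Bbc3 (ENSMUSG00000002083) at chr7:16308393-16318205 and Bad (ENSMUSG00000024959) at chr19:6941861-6951899. Pmaip1 (ENSMUSG00000024521) is also on the plus strand. Bad shares part of its span with Gpr137 and Bcl2 with D630008O14Rik, each on the opposite strand, and Bcl2 also with Mir3473f and Gm37053 on its own strand.

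**Figure D1:**
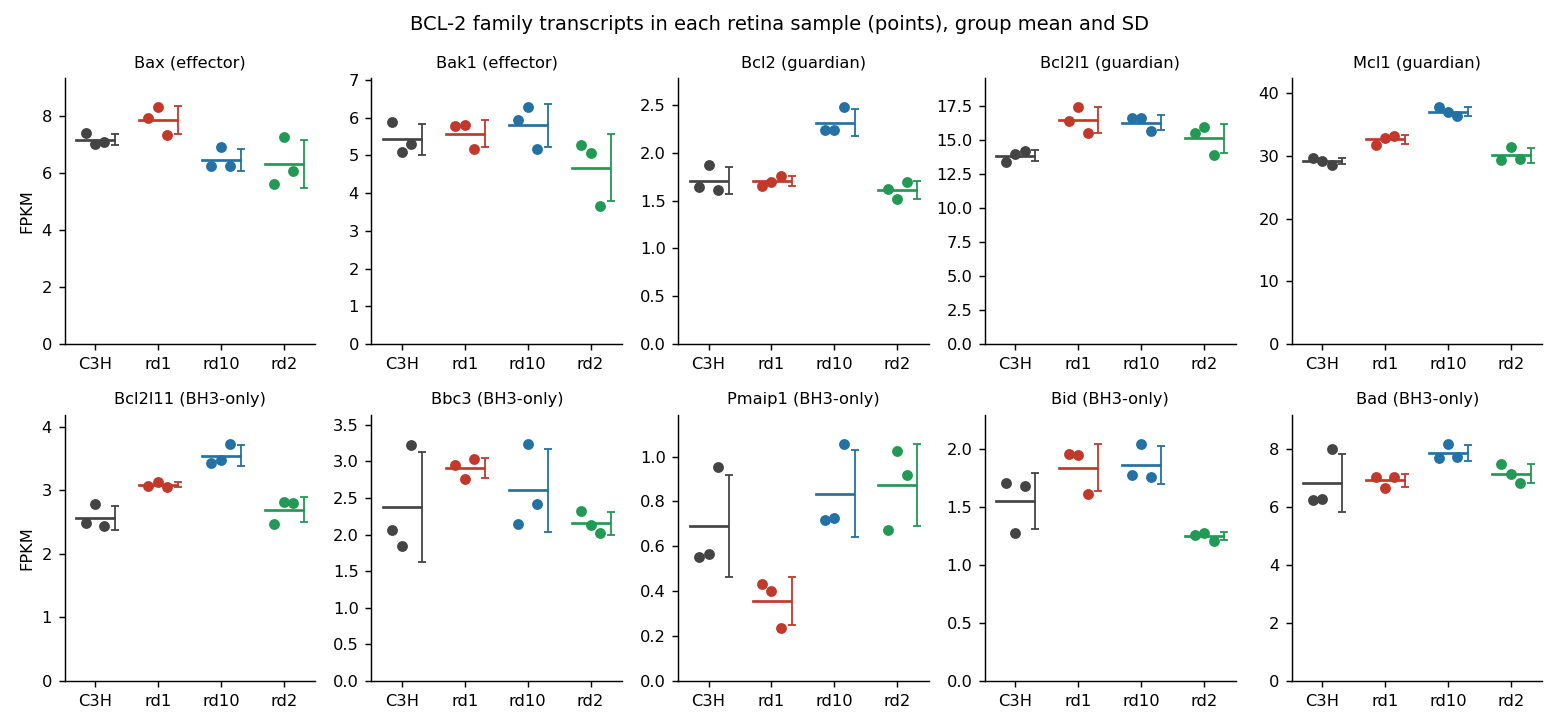
FPKM (vertical axis, from 0) of the 10 BCL-2 family genes in each of the 12 retina samples, with the group mean as a line and its SD as a bar beside the points (n = 3). The rd10 samples sit above all others for Mcl1, Bcl2 and Bcl2l11, the rd1 samples sit below all others for Pmaip1, and Bak1 overlaps between all groups.

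Against C3H, the family moved little. In rd1, 2 members rose and 1 fell at an adjusted p under 0.05 (edgeR quasi-likelihood test, Benjamini-Hochberg adjustment over all genes tested), where 21.9% of all genes tested rose and 21.3% fell. In rd10, 4 members rose and 0 fell, where 27.7% of all genes rose and 26.3% fell. In rd2, 0 members changed and 1 had an unadjusted p under 0.05, where 9.7% of all genes changed, and DESeq2 also gave 0. The share of members that rose in rd10 was above that of all genes and the share that fell below it, while in rd1 and rd2 the shares were near or below those of all genes. None of these shares was tested. Under the thresholds of the study for a differentially expressed gene (DEG), an unadjusted p under 0.05 and a fold of at least 1.5, only Pmaip1 in rd1 was a DEG among the 30 tests of a member against C3H, where 15% of genes were DEGs in rd1, 23.9% in rd10 and 4.57% in rd2.

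The sizes were small as well. The median absolute log2 fold change of the members was 0.130 in rd1, 0.210 in rd10 and 0.140 in rd2, beside 0.195, 0.265 and 0.126 for all genes tested. The 95% interval of the fold lay within 1.5-fold in either direction for 9 members in rd1, 9 in rd10 and 8 in rd2. Pmaip1 was outside in all 3 models, and Bid was outside in rd2. In rd10, 9 of 10 estimates were above 0, beside 49.7% of all genes.

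**Figure D2:**
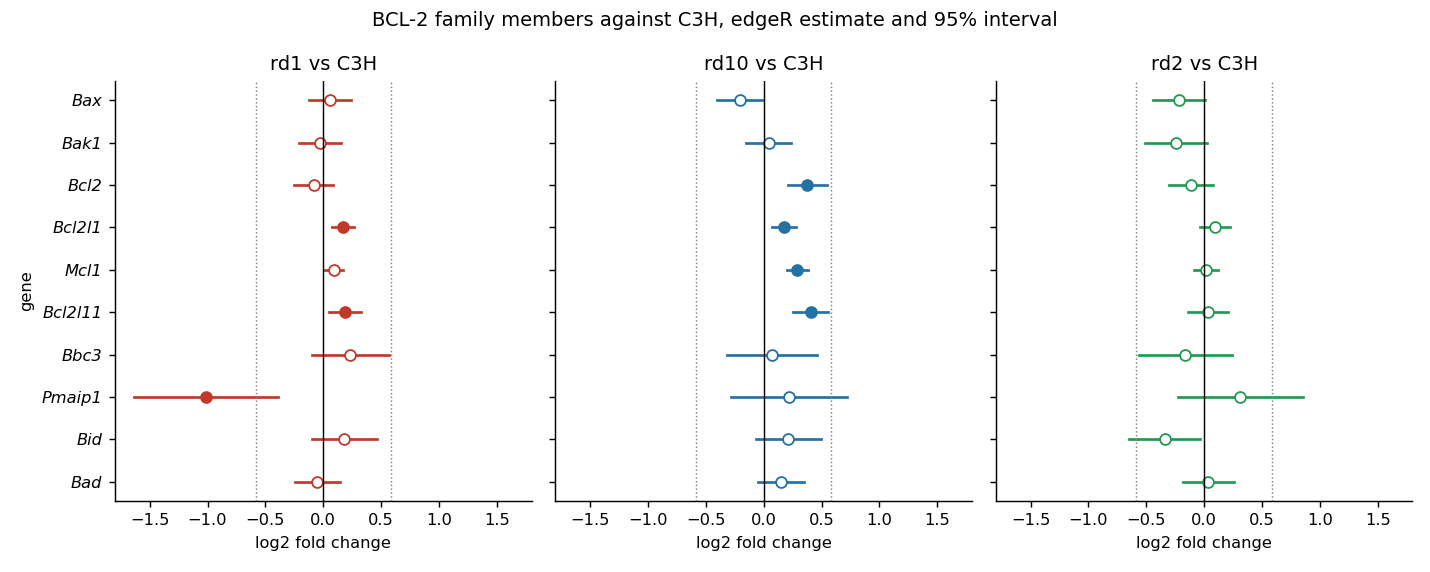
Log2 fold change of each BCL-2 family gene in each model against the 3 C3H samples, with its 95% interval (horizontal axis), filled where the adjusted p was under 0.05 and open otherwise, with dotted lines at 1.5-fold. The 3 guardians and Bcl2l11 are filled in rd10, only Pmaip1 passes a dotted line with its estimate, and no point is filled in rd2.

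**Figure D3:**
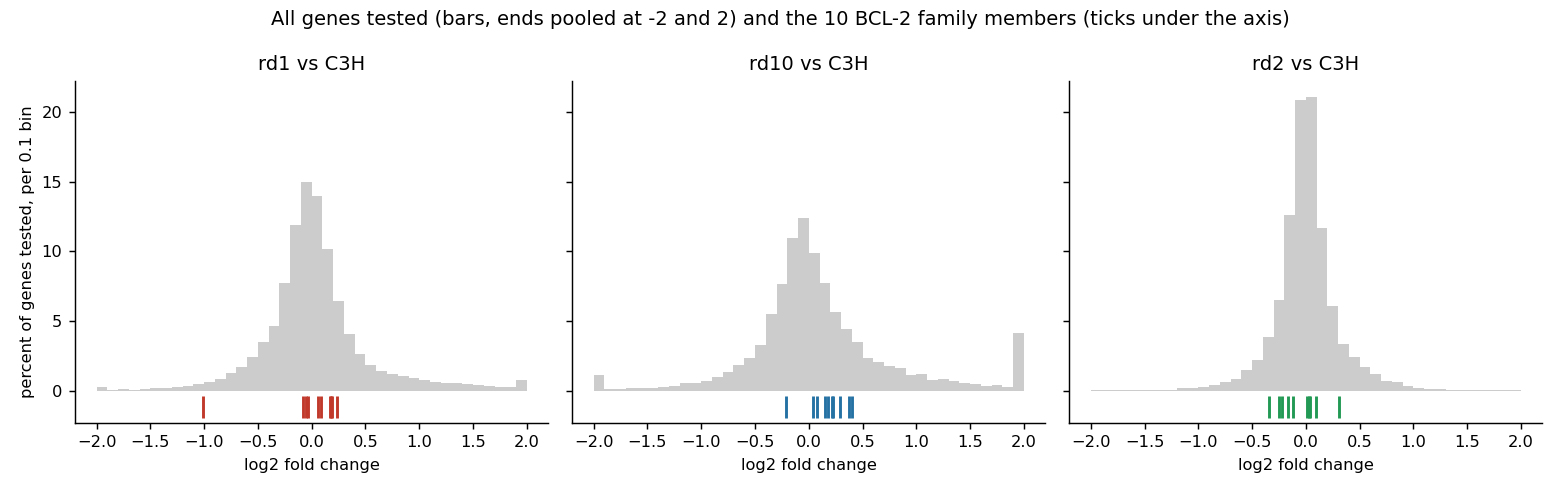
Distribution of the log2 fold change over all genes tested in each model against C3H (grey bars, percent of genes per 0.1 bin, with values beyond 2 pooled in the end bins) and the 10 members as ticks under it. Apart from Pmaip1 in rd1, at -1.01, the ticks lie in the central part of each distribution.

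Bax, whose product makes pores when activated, had FPKM values of 7.42, 7.05 and 7.11 in C3H, 7.96, 8.34 and 7.34 in rd1, 6.25, 6.91 and 6.25 in rd10, and 5.63, 7.26 and 6.07 in rd2. The rd10 samples lay below all C3H samples, and the rd2 samples overlapped them. The log2 fold changes against C3H were 0.06 ± 0.09 (SE) in rd1, -0.21 ± 0.09 in rd10 and -0.22 ± 0.10 in rd2, with adjusted p of 0.637, 0.063 and 0.224. Bak1, which encodes the effector that resides on mitochondria, had FPKM values of 5.88, 5.08 and 5.31 in C3H, 5.76, 5.80 and 5.15 in rd1, 5.92, 6.28 and 5.17 in rd10, and 5.28, 5.07 and 3.65 in rd2. All groups overlapped. Its log2 fold changes were -0.03 ± 0.09, 0.04 ± 0.09 and -0.25 ± 0.12, with adjusted p of 0.808, 0.719 and 0.249. The 95% intervals of both effectors excluded a 1.5-fold change in either direction in all 3 models. Bax shares part of its span with Gm45808 on the same strand and Bak1 with Ggnbp1 on the other strand, and the strand setting of the counting was not given in the sources used here.

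The guardians rose together in rd10. Mcl1 had FPKM values of 29.6, 29.2 and 28.6 in C3H, 31.8, 32.9 and 33.2 in rd1, 37.8, 37.0 and 36.3 in rd10, and 29.2, 31.4 and 29.4 in rd2. The rd10 samples were the 3 highest of the 12. Its level was 1.22-fold that of C3H in rd10 (log2 0.29 ± 0.04, adjusted p = 5.59e-06), against 0.09 ± 0.04 in rd1 (adjusted p = 0.0601) and 0.01 ± 0.05 in rd2 (adjusted p = 0.911).

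Bcl2 had FPKM values of 1.64, 1.87 and 1.61 in C3H, 1.66, 1.70 and 1.76 in rd1, 2.23, 2.23 and 2.48 in rd10, and 1.62, 1.52 and 1.70 in rd2. Again the rd10 samples stood above the other 9, which overlapped. The rise in rd10 was 1.30-fold (log2 0.38 ± 0.08, adjusted p = 0.000479), and the log2 fold changes in rd1 and rd2 were -0.08 ± 0.08 and -0.12 ± 0.09, with adjusted p of 0.446 and 0.474.

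Bcl2l1, the guardian gene whose longer product BCL-XL protects many neurons, had FPKM values of 13.4, 14.0 and 14.2 in C3H, 16.4, 17.4 and 15.5 in rd1, 16.6, 16.6 and 15.7 in rd10, and 15.6, 15.9 and 13.9 in rd2. Both Pde6b models lay above all C3H samples, and rd2 overlapped them. It rose 1.13-fold in rd1 (log2 0.17 ± 0.05, adjusted p = 0.00458) and 1.13-fold in rd10 (log2 0.18 ± 0.05, adjusted p = 0.0046), and its log2 fold change in rd2 was 0.09 ± 0.06 (adjusted p = 0.374). The counts are per gene, so the longer and shorter products of Bcl2l1 were not separated. Set against the C3H sample of the same day alone, the log2 values of Bcl2 and Bcl2l1 in rd10 and of Bcl2l1 in rd1 were 0.26 ± 0.11, 0.17 ± 0.08 and 0.21 ± 0.09, with adjusted p of 0.081, 0.142 and 0.117.

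Of the BH3-only members, only Bcl2l11 rose beside the guardians in rd10. BIM binds all of the guardians and is induced by loss of trophic support in neurons. Its FPKM values were 2.48, 2.79 and 2.45 in C3H, 3.07, 3.13 and 3.06 in rd1, 3.44, 3.47 and 3.74 in rd10, and 2.47, 2.82 and 2.80 in rd2. The order rd10, rd1, then C3H held without overlap, and rd2 overlapped C3H. It rose 1.32-fold in rd10 (log2 0.41 ± 0.07, adjusted p = 6.49e-05) and 1.14-fold in rd1 (log2 0.19 ± 0.07, adjusted p = 0.0295). The call in rd1 was lost when any of 4 of the 6 samples was left out (C3H samples 1 and 3, rd1 samples 1 and 2), with adjusted p of up to 0.118, while the estimate stayed between 0.15 and 0.25 when any 1 of the 6 was left out. DESeq2 gave 0.19 ± 0.09 with an adjusted p of 0.0872. In rd2 the log2 fold change was 0.03 ± 0.08 (adjusted p = 0.853).

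The promoters of the 4 genes that rose in rd10 against C3H are shown because they share that call. In rd1 against C3H, Bcl2l1 and Bcl2l11 rose but Bcl2 and Mcl1 did not pass. Each window runs from 250 bases before to 50 bases after a start site (RefSeq, GRCm38.p6), and for genes with several windows the one nearest the annotated gene start was taken. Capitals mark GC boxes (GGGCGG) and CCAAT boxes (CCAAT), on either strand.
Bcl2, chr1:106714241-106714540, minus strand: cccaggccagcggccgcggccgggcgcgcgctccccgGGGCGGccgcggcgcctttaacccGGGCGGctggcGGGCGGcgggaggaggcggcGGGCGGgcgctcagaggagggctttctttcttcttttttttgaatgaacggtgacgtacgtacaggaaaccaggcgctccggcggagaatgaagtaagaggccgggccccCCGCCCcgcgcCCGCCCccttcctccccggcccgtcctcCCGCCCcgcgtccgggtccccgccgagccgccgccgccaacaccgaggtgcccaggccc
Bcl2l1, chr2:152831679-152831978, minus strand: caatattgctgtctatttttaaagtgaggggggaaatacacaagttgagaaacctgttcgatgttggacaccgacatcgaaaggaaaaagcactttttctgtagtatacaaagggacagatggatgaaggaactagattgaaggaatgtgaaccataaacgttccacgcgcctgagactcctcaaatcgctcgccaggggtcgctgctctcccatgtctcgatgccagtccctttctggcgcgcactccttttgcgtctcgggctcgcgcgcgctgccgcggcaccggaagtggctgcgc
Mcl1, chr3:95658471-95658770, plus strand: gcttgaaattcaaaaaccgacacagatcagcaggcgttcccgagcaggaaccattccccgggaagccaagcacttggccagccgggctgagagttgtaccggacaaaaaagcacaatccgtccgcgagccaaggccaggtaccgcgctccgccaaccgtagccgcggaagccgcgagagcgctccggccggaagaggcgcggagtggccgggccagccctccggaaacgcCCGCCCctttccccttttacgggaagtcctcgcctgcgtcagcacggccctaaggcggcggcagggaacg
Bcl2l11, chr2:128125788-128126087, plus strand: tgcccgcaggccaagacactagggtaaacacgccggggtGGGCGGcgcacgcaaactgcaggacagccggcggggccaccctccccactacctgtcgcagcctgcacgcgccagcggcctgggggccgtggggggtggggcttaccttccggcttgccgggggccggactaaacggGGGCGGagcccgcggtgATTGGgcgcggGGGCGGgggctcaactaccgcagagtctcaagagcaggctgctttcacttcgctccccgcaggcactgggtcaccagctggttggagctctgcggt
The Bcl2 window held 7 GC boxes and was 76% G and C, and the Bcl2l11 window held 3 GC boxes and 1 CCAAT box. The Mcl1 window held 1 GC box and the Bcl2l1 window held 0 of either, at 52.3% G and C, near the median of 52.7% over the 32851 windows of all genes. A GC box was present in 35.7% of those windows and a CCAAT box in 37.4%, and a letter match is not evidence of a bound factor. The Bcl2l11 window also held 1 match to the FOXO letters GTAAACA, present in 3.65% of windows, and 0 of the 4 windows held the STAT letters TTCNNNGAA, the CRE letters TGACGTCA or the TATA box letters TATAAA. Of the 10 members, 9 had a window in the table.

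Pmaip1, a p53 target whose product NOXA binds MCL-1, was the one member past 1.5-fold against C3H. It had 29, 36 and 50 reads in C3H, 25, 18 and 12 in rd1, 47, 36 and 56 in rd10, and 42, 65 and 59 in rd2. In FPKM these were 0.552, 0.566 and 0.954 in C3H, 0.433, 0.399 and 0.235 in rd1, 0.718, 0.727 and 1.06 in rd10, and 0.671, 1.03 and 0.920 in rd2. The rd1 samples were the 3 lowest of the 12, while the other groups overlapped. Its level in rd1 was 0.496 of that in C3H (log2 -1.01 ± 0.30, adjusted p = 0.00852), with a 95% interval of the log2 fold change from -1.64 to -0.39. Without the C3H sample labelled day 29, its highest control, the log2 fold change was -0.72 and the adjusted p 0.0897. Against the C3H sample of day 13 alone, the log2 fold change was -0.72 (adjusted p = 0.265). In rd10 and rd2 it was 0.22 ± 0.24 and 0.31 ± 0.25, with adjusted p of 0.458 and 0.506. Among 19615 other genes, those whose log2 CPM followed Pmaip1 most closely over the 12 samples were Hilpda (r = 0.938), Kcnc4 (r = 0.933) and Vip (r = 0.918), a description over points that share their groups.

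Bbc3, another p53 target, had FPKM values of 2.06, 1.84 and 3.23 in C3H, 2.95, 2.76 and 3.03 in rd1, 2.15, 3.24 and 2.42 in rd10, and 2.33, 2.12 and 2.02 in rd2. The C3H sample of day 29 was the highest control here too, and the C3H range covered all samples of rd1 and rd2. All rd2 samples, also of day 29, lay below that control. The log2 fold changes were 0.24 ± 0.16, 0.07 ± 0.19 and -0.16 ± 0.19, with adjusted p of 0.258, 0.76 and 0.659. Without the day 29 control, the value in rd1 was 0.51 (adjusted p = 0.00782), so this control decided the call.

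Bid, whose product links death receptors to mitochondria once cleaved, had FPKM values of 1.70, 1.28 and 1.68 in C3H, 1.96, 1.95 and 1.61 in rd1, 1.78, 2.05 and 1.76 in rd10, and 1.26, 1.27 and 1.21 in rd2. The rd2 samples were below every other sample and the rd10 samples above every C3H sample. None of its log2 fold changes against C3H passed: they were 0.18 ± 0.14 in rd1, 0.21 ± 0.13 in rd10 and -0.34 ± 0.14 in rd2, with adjusted p of 0.302, 0.19 and 0.161. Set against the C3H sample of the same day alone, the value in rd10 was 0.49 (adjusted p = 0.0415). Bid overlaps Gm44260 on the same strand and Bcl2l13 and Gm17812 on the other.

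Bad, whose product is held inactive by survival kinases, had FPKM values of 6.25, 6.28 and 7.997 in C3H, 7.05, 6.66 and 7.06 in rd1, 7.69, 8.20 and 7.75 in rd10, and 7.50, 7.14 and 6.84 in rd2. All model samples but 1 of rd10 lay within the wide C3H range. Its log2 fold changes were -0.05 ± 0.10, 0.15 ± 0.10 and 0.04 ± 0.10, with adjusted p of 0.71, 0.196 and 0.88. Without the day 29 control, its highest, the value in rd10 was 0.28 (adjusted p = 0.0182).

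**Figure D4:**
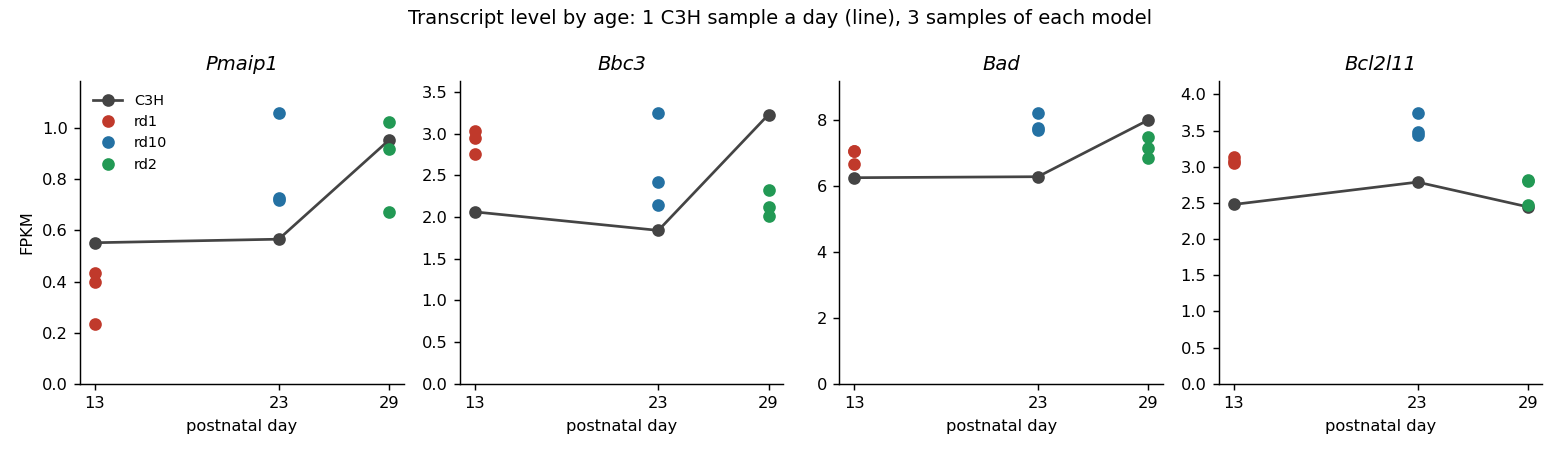
FPKM (vertical axis, from 0) of Pmaip1, Bbc3, Bad and Bcl2l11 against postnatal day, with the 1 C3H sample of each day joined by a line and the 3 samples of each model as points at their day. The C3H sample of day 29 is the highest control for Pmaip1, Bbc3 and Bad, at 0.954, 3.23 and 7.997, and there is no second control at any day.

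Summed by class, guardian transcript outweighed effector transcript in all 12 samples. The summed FPKM of Bcl2, Bcl2l1 and Mcl1 was 44.7 ± 0.305 (SD, n = 3) in C3H, 50.8 ± 1.15 in rd1, 55.6 ± 1.09 in rd10 and 46.8 ± 1.95 in rd2. Mcl1 alone made up between 63.0 and 66.7% of it. The sum of Bax and Bak1 was 12.6 ± 0.609 in C3H, 13.5 ± 0.852 in rd1, 12.3 ± 0.891 in rd10 and 10.99 ± 1.31 in rd2. The ratio of effectors to guardians was thus 0.298, 0.269 and 0.279 in C3H, 0.276, 0.272 and 0.248 in rd1, 0.215, 0.236 and 0.210 in rd10, and 0.235, 0.252 and 0.216 in rd2. It was below every C3H value in all samples of rd10 and rd2, and the rd1 values overlapped C3H. The commonly quoted ratio of Bax to Bcl2 was 3.77 to 4.52 in C3H, 4.18 to 4.91 in rd1, 2.52 to 3.09 in rd10 and 3.47 to 4.80 in rd2, lower than every control only in rd10. The 5 BH3-only members summed to 14.0 ± 1.97 in C3H, 15.1 ± 0.304 in rd1, 16.7 ± 0.961 in rd10 and 14.1 ± 0.305 in rd2. With Bcl2l2, a guardian gene outside the 10, added after its values were seen, the guardian sum was 65.0 ± 0.256 in C3H, 66.5 ± 1.125 in rd1, 79.3 ± 1.35 in rd10 and 67.5 ± 1.87 in rd2, so that rd1 overlapped C3H, while the ratio of effectors to guardians was still below every C3H value in all samples of rd10 and rd2. These sums are descriptions of RNA, were not tested, and say nothing of protein. FPKM also lacks the scaling between samples used in the fits, so the sums may overstate how far rd1 exceeded C3H. Mean Mcl1 was 32.6 FPKM in rd1 and 29.1 in C3H, while the fit gave 1.06-fold. Mean Bak1 was 5.57 and 5.42, while the fit gave 0.979-fold.

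**Figure D5:**
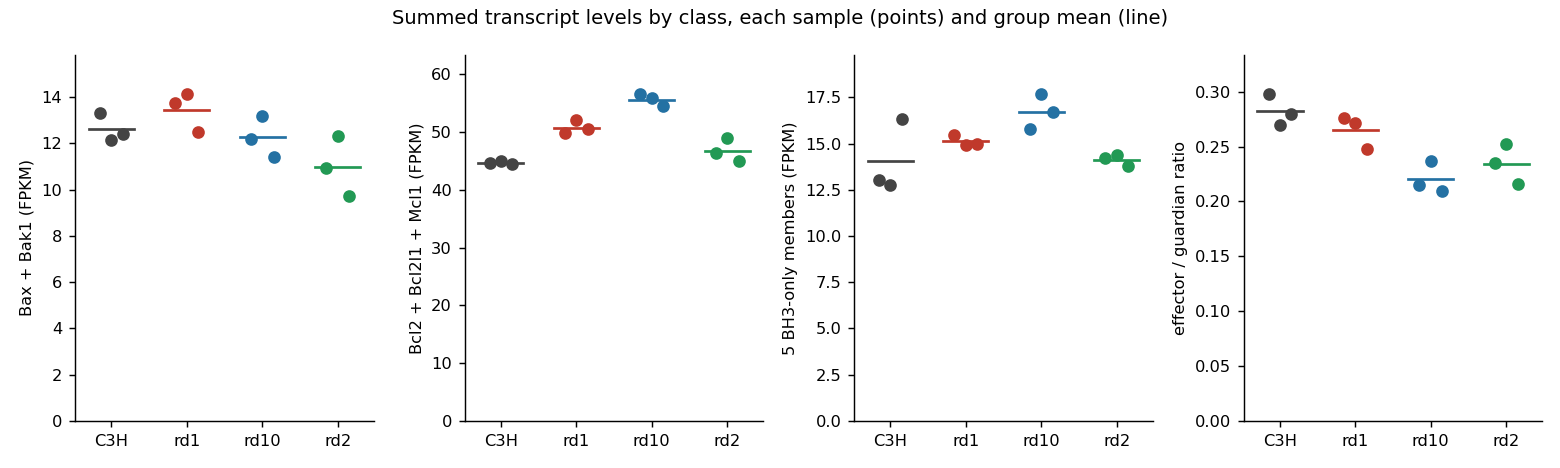
Summed FPKM of the effectors, the guardians and the 5 BH3-only members, and the ratio of effectors to guardians (vertical axes, from 0), in each sample, with the group mean as a line. The guardian sum is highest in rd10, at 54.5 to 56.6, and the ratio is lowest there, at 0.210 to 0.236, against 0.269 to 0.298 in C3H.

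The models were also compared directly, by contrasts in a fit of all 12 samples. The rd10 samples exceeded rd1 in 5 members and were lower in 1, where 30.2% of all genes tested were higher and 27% lower, and 1 member was a DEG, where 28.8% of all genes were. The higher members were Bcl2 (log2 0.49 ± 0.08), Mcl1 (0.23 ± 0.04), Bcl2l11 (0.24 ± 0.07), Pmaip1 (1.26 ± 0.30, adjusted p = 0.00113) and Bad (0.23 ± 0.09, adjusted p = 0.0441), and the lower one was Bax (-0.24 ± 0.10, adjusted p = 0.0422). Of the guardians, Bcl2 and Mcl1 were thus higher in rd10 than in rd1, and Bcl2l1 differed by 0.03 with a 95% interval from -0.09 to 0.15. The calls of Bad and Bax were lost in 6 and 5 of the 12 fits that left out 1 sample, with adjusted p of up to 0.127 for each.

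The rd10 samples exceeded rd2 in 5 members and were lower in 0, where 22.6% of all genes were higher and 21.3% lower, and 0 members were DEGs, where 19.7% of all genes were. The 5 were Bcl2 (log2 0.50 ± 0.08), Bcl2l11 (0.38 ± 0.07), Mcl1 (0.28 ± 0.04), Bid (0.55 ± 0.13, adjusted p = 0.00165) and Bak1 (0.29 ± 0.11, adjusted p = 0.0456). The rd1 samples exceeded rd2 in Bid (0.50 ± 0.13, adjusted p = 0.00522) and Bax (0.25 ± 0.10, adjusted p = 0.0442) and were lower in Pmaip1 (-1.35 ± 0.29, adjusted p = 0.000898), where 18.5% of genes were higher and 21.3% lower. Pmaip1 was the 1 DEG, where 16.9% of all genes were. Bid thus passed in both contrasts of a Pde6b model with rd2. The calls of Bak1 and of Bax were lost in 8 and 9 of the 12 fits that left out 1 sample, with adjusted p of up to 0.266 and 0.191. The call of Bid held in every such fit of both contrasts.

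Markers of several cell types differed from C3H in rd10, some higher and some lower, where 27.7% of all genes rose and 26.3% fell. Of 10 microglia and macrophage markers, 9 rose in rd10 and 1, P2ry12, fell (-0.36 ± 0.12, adjusted p = 0.0156). The 10 markers summed to 174 to 186 FPKM in rd10, against 54.8 to 55.3 in C3H, 51.2 to 55.3 in rd1 and 50.4 to 53.2 in rd2. In each group 0 of them were at 0. Of the 3 markers of astrocytes and reactive glia, Gfap rose in rd10 (log2 3.19 ± 0.05, adjusted p = 2.21e-21), S100b fell (-0.36 ± 0.11, adjusted p = 0.0074) and Pax2 had a value of -0.11 ± 0.27 (adjusted p = 0.754), and their sum was 84.3 to 92.6 FPKM against 14.6 to 15.9 in C3H. Of 7 cone markers, 6 rose in rd10 and 1, Gngt2, fell (-0.95 ± 0.08, adjusted p = 3.33e-09), and their sum was 294 to 298 FPKM against 204 to 208 in C3H. All 6 bipolar markers fell in rd10, as did 9 of 10 rod markers, and of 5 Müller glia markers 2 rose and 3 fell. Bcl2l1 also rose in rd1, where the cone sum was 149 to 154 FPKM. The part of these cells in the levels of Mcl1, Bcl2, Bcl2l1 and Bcl2l11 was not tested. Bcl2a1a and Bcl2a1d, guardian paralogs typical of blood cells, which share sequence and were not tested because of low counts, had 12, 12 and 4 reads and 19, 15 and 7 reads in rd10, against at most 1 and 8 reads in any other sample.

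The rest of the family was read from a fixed list of 15 further genes, of which 10 passed the count filter. In rd1, 1 rose and 2 fell, in rd10, 2 rose and 5 fell, and in rd2, 1 rose, with a median log2 fold change of -0.17 in rd10 beside -0.0025 for all genes. Among all genes tested, 21.9% rose and 21.3% fell in rd1, 27.7% rose and 26.3% fell in rd10, and 9.7% changed in rd2. None of the 10 was a DEG against C3H, where 15% of all genes were in rd1, 23.9% in rd10 and 4.57% in rd2. Between the Pde6b models 4 were DEGs, where 28.8% of all genes were. The same shares of all genes stand beside the counts of each list below, and no list was tested against them. Bcl2l2, which encodes the guardian BCL-W, had 20.4, 19.8 and 20.9 FPKM in C3H, 15.4, 15.3 and 16.5 in rd1, 23.9, 23.8 and 23.4 in rd10 and 20.5, 20.6 and 20.9 in rd2. It thus lay below C3H in one Pde6b model and above it in the other, and differed between them by 0.63 ± 0.05 on the log2 scale (adjusted p = 3.29e-10). Bnip3, a hypoxia-induced relative that serves mitophagy, exceeded its rd1 level in rd10 by 0.73 ± 0.06 (adjusted p = 2.38e-09). Hrk, a neuronal BH3-only gene, and Bcl2l12 were lower there, by log2 values of -1.06 ± 0.20 (adjusted p = 0.000141) and -0.66 ± 0.19 (adjusted p = 0.00498).

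Downstream of the mitochondrion, 16 genes of the apoptosome and caspases were all tested. In rd1, 4 rose and 4 fell, in rd10, 1 rose and 6 fell, and in rd2, 1 fell. The median log2 fold change of the 16 was 0.03, -0.13 and -0.02, beside -0.01, -0.0025 and -0.0012 for all genes. Birc5, which encodes survivin, rose in rd1 (1.14 ± 0.45, adjusted p = 0.0464) at 3 to 23 reads a sample.

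The list of the p53 arm held Trp53, its relatives and regulators, and many p53 targets, which are not upstream of the BH3-only members. Of its 16 genes, 14 were tested against C3H. In rd1, 3 rose and 5 fell, in rd10, 4 rose and 2 fell, and in rd2, 1 fell, with medians of -0.09, 0.05 and 0.08. Phlda3, a p53 target, rose in rd10 (1.58 ± 0.15, adjusted p = 1.45e-08), from 1.39 to 1.97 FPKM in C3H to 4.77 to 5.93. Eda2r, another target, fell in rd1 (-1.47 ± 0.48, adjusted p = 0.015) and rose in rd10 (1.05 ± 0.32, adjusted p = 0.00882), at only 2 to 34 reads a sample. In rd2 its value was 0.82 ± 0.29 with an adjusted p of 0.0984. Pmaip1 and Bbc3, p53 targets among the members, did not pass in rd10.

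A further list of 11 genes held inducers of BH3-only genes and also Trib3 and Chac1, which are stress-response outputs rather than inducers. In rd1, 2 rose and 3 fell, in rd10, 1 rose and 3 fell, and in rd2, 2 rose, with medians of -0.04, 0.04 and 0.04. Trib3, a target of the integrated stress response, rose in rd10 (0.76 ± 0.15, adjusted p = 0.000184) and in rd2 (0.85 ± 0.14, adjusted p = 0.000968). Chac1, of the same response, rose in rd2 (0.72 ± 0.18, adjusted p = 0.0232). No other gene of the list rose in rd10 or rd2. In rd10, Atf4 of the same list fell (-0.28 ± 0.04, adjusted p = 5.99e-06). Ddit3 and Chac1 did not pass in rd10, with adjusted p of 0.0611 and 0.0743. Of 12 mitochondrial partners and turnover factors, 3 rose and 3 fell in rd1, 1 rose and 3 fell in rd10, and 1 fell in rd2, with medians of -0.02, -0.01 and 0.02. Dynll1, a dynein light chain that tethers BIM, had 22.9, 23.6 and 23.2 FPKM in C3H and 13.6, 14.0 and 13.2 in rd10, a log2 fold change of -0.83 ± 0.05 (adjusted p = 5.58e-12). It was the only gene of that list past 1.5-fold against C3H.

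Back-splice junctions gave nothing further on the members. Of the 12510 circular RNAs listed for the same retinas, 0 named one of the 10 genes as host.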

How the data were processed

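The gene counts deposited by the authors are unnormalized reads per gene, aligned to GRCm38 and counted with HTSeq 0.11.2 from rRNA-depleted directional libraries. The FPKM values deposited by the authors scale these counts by gene length and total. The circRNA junction counts and TPM values deposited by the authors came from TopHat2 2.1.1 and were used only to look for host genes. Positions follow GRCm38.

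Tests against C3H were run 1 model at a time in edgeR 4.0.16 (R 4.3.3), with TMM scaling, its filter on low counts and the quasi-likelihood test, and tests between models in a fit of all 12. Adjusted p-values cover all genes tested. "Rose" and "fell" mean an adjusted p under 0.05. The steps were tested on simulated data. Alternatives used limma 3.58.1 on log2(FPKM + 1) or log2(FPKM + 0.1), DESeq2 1.42.0, other scaling and filters, a replicate block, the C3H sample of the same day, and each sample left out.

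All 10 members are named. Of the related lists, the counts are given and the DEGs, at most 4 a comparison by p, and for Pmaip1 the 3 genes with the highest r. Some genes that this rule would name are not reported here. Bcl2a1a, Bcl2a1d, Atf4 and Ddit3 were named after their values were seen. The members and lists were chosen with earlier results of these data known. Intervals cover the spread between samples.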

Additional observations from a re-analysis of the deposited data

Results flagged for a closer look

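The direct contrasts between models passed both an unadjusted p under 0.05 and 1.5-fold for 1 member, Pmaip1, in 2 of the 3 contrasts. Its log2 difference was 1.26 for rd10 over rd1 and -1.35 for rd1 over rd2, with adjusted p of 0.00113 and 0.000898 (edgeR). The 3 rd1 samples, at 12 to 25 reads, were below all 6 samples of rd10 and rd2, at 36 to 65 reads. Age and sex differ between these models as well. So does strain between rd1 and rd10, and between rd1 and rd2 if the rd2 label is right. None of these can be told apart from the mutation.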

How the results depend on the processing

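Among the calls against C3H, those of Mcl1 and Bcl2l11 in rd10 held under every alternative run. Set against the C3H sample of the same day, the number of members changed in rd1 was 0 instead of 3 and the number of DEGs 0 instead of 1, and in rd2 there was 1 DEG instead of 0. That fit has 1 control per model, whose spread is taken from the other samples. The log2 fold changes behind the 3 lost calls in rd1 kept their direction there, at 0.21 ± 0.09 for Bcl2l1, 0.23 ± 0.10 for Bcl2l11 and -0.72 ± 0.41 for Pmaip1. The log2 fold changes that turned sign there had not passed in either fit: Bax in rd1 (-0.0033), Bad in rd1 (0.060), Pmaip1 in rd2 (-0.17) and Bad in rd2 (-0.20). With limma on log2(FPKM + 1), where low values are compressed, Pmaip1 lost its place as a DEG, which left 0 DEGs in rd1 against C3H, 0 in rd10 against rd1 and 0 in rd1 against rd2, while 5 members instead of 3 differed between rd1 and rd2. In both limma fits, with 1 or 0.1 added, 3 members rose in rd1 and 0 fell at an adjusted p under 0.05. Pmaip1 thus lost that call in both, although with 0.1 added 1 member was still a DEG in rd1. In the limma fits with 1 or 0.1 added, Bak1 in rd1 was 0.034 and 0.039 and Bad in rd1 0.022 and 0.026. By TMM-normalized CPM in place of FPKM, 9 of the 10 members had the same highest group and 6 the same order of all groups, Bcl2l1 being highest in rd10 by CPM and in rd1 by FPKM.

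With each sample left out in turn, the number of members changed was 2 to 3 in rd1, 4 to 5 in rd10 and 0 to 1 in rd2 (1 without rd2 sample 2, where Bax had an adjusted p of 0.0422). DEGs numbered 0 to 1 in rd2 (1 without C3H sample 3) and 0 to 1 in rd10 against rd2 (1 without rd10 sample 1 or 3). Estimates that crossed 0, none of them called, ranged from -0.085 to 0.022 for Bak1 and from -0.12 to 0.072 for Bad in rd1, from -0.013 to 0.12 for Bak1 and from -0.10 to 0.35 for Bbc3 in rd10, and in rd2 from -0.00025 to 0.10 for Bcl2l11, from -0.33 to 0.12 for Bbc3, from -0.026 to 0.16 for Bad and from -0.016 to 0.029 for Mcl1. Replicate numbers are shared by the groups, but not every pair of same-numbered samples deviated together (r of -0.105 to 0.299 over 18 pairs, with 6 of 6 samples closest to their own number for C3H and rd1 and 0 of 6 for C3H and rd10). With the numbers as a replicate block, 3 members changed in rd1, 4 in rd10 and 0 in rd2, and 6, 5 and 3 differed in rd10 against rd1, rd10 against rd2 and rd1 against rd2, the same counts as without it. Causes were not tested. Depth limits Pmaip1, at 12 to 65 reads a sample.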
